A study of Mus musculus with 11 samples.

Results

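Transcript levels of 40 mitosis and spindle genes were examined in 11 mouse cell lines, each grown from 1 granulocyte-monocyte progenitor (GMP), a blood cell precursor that gives rise to neutrophils and monocytes. The genes were a list of symbols chosen for their roles in cell division, with earlier results of these data known. Each was matched to 1 Ensembl gene ID, so they are 40 of the 37583 gene IDs counted. All 40 were abundant enough to be among the 11900 genes tested. Each clone is named by the genotype and the number and letter in its title. The 6 wild-type clones (WT 1A, 1B, 1C, 2D, 2E and 2F) carried the intact Taz gene, which encodes tafazzin, the mitochondrial enzyme that remodels cardiolipin. The 5 knockout clones (KO 3H, 3I, 4J, 4K and 4L) lacked it. Both genotypes are of the C57BL/6 strain, were derived from liver of E15.5 fetuses and carried a retroviral ER-Hoxb8 construct, an oestrogen-controlled Hoxb8 fusion that holds progenitors in an immature, dividing state. All lines were cultured with 0.5 uM beta-estradiol and stem cell factor equivalent to about 50 ng/ml, so the WT clones had the hormone for ER-Hoxb8 as the KO clones did. The activity of the fusion was not measured here. The sources used here do not say which embryos the clones came from or what the number in the title marks. Each RNA sample came from a whole culture of 1 clone.

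A cell enters mitosis when the kinase CDK1, bound to B-type cyclins and switched on by CDC25 phosphatases, phosphorylates its targets. Condensin and topoisomerase II then compact and untangle the chromosomes, kinetochores attach them to spindle microtubules, and the spindle assembly checkpoint holds the cell until every chromosome is attached. CDC20 then activates the anaphase-promoting complex, separase opens cohesin, and the central spindle places the furrow that divides the cell. Transcripts of most of these genes accumulate in G2 and mitosis, in part through a promoter element with the letters TTTGAA (the cell cycle genes homology region, CHR), which the MuvB complex binds as part of DREAM or with B-MYB and FOXM1, and through CCAAT boxes bound by NF-Y.

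Gene counts totalled 19778119 to 27431544 per clone. In the KO clones Taz stood at 8.25% of its WT level (3.23 against 39.1 CPM, gene counts per 1000000 of the scaled library; -3.60 on the log2 scale, edgeR adjusted p = 4.08e-07), and the sources used here do not say which part of the gene was deleted. All 9 matched GMP and primary granule markers, such as Mpo and Elane, had counts in every clone. The 9 together summed to 13428 to 22256 CPM in WT and 12514 to 19846 CPM in KO clones. Single granule genes varied far more than this sum: Elane ran from 23.3 CPM in WT 2E to 825 in WT 2D among WT clones, and from 2.26 CPM in KO 4K and 8.87 in KO 3I to 147 in KO 4L among KO clones. Prtn3 ran from 578 CPM in WT 2E to 2419 in WT 2D and from 298 CPM in KO 4K to 1379 in KO 4L. Lymphoid markers were low, with a sum over 8 genes of 25.7 to 54.5 CPM in WT and 4.32 to 29.0 CPM in KO clones, and of the 4 tested all had a lower mean in KO, 2 of them at an unadjusted p under 0.05 and 0 at edgeR's adjusted p. Their part in the results was not tested. A pair of WT clones stood apart from the rest. WT 2D had a summed level of 12 late neutrophil markers of 1546 CPM, against 16.0 to 146 CPM in the other 10 clones. WT 1A and 2D had 0.0768 and 17.3 CPM of the p53 target Perp, against 225 to 419 CPM in the other 9. Exons of 13 of the 40 genes overlap another gene over 1.35 to 29.3% of their length, and Ccnb1, Ccnb2 and Kif4 each have a named pseudogene, so reads of these genes could have been shared or lost in counting. Results are also given with these 2 clones left out, a setting chosen after the data were seen.

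The promoters of the 40 genes shared these letters more often than promoters at large. RefSeq promoters (GRCm38.p6, from 250 bases before to 50 bases after the start of the gene) were found for 33 of the 40. The letters TTTGAA, read on either strand (TTTGAA or TTCAAA), occurred in 24 of the 33 (72.7%), against 17.9% of all 32851 promoters and 11.8% of the 8935 promoters of tested genes. CCAAT, read as CCAAT or ATTGG, also occurred in 24 of the 33 (72.7%), against 37.4% of all promoters and 39.2% of those of tested genes. Both motifs were present in 20 of the 33 (60.6%), against 6.95% and 5.09%. The 200 bases before the start are shown for Cdc20, which fell in the KO clones, for Top2a, which rose, and for Ccnb2 and Ect2, the genes of highest level per length in their role groups. All 4 are written 5′ to 3′ on the strand of the gene, the minus strand in each case, and capitals mark the 2 motifs on either strand. They lie at chr4:118437344-118437543, chr11:99024190-99024389, chr9:70421555-70421754 and chr3:27153879-27154078.
Cdc20: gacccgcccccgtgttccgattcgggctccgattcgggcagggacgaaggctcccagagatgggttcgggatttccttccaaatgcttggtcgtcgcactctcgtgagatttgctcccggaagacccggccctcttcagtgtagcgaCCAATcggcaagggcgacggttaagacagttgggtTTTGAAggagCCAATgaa
Top2a: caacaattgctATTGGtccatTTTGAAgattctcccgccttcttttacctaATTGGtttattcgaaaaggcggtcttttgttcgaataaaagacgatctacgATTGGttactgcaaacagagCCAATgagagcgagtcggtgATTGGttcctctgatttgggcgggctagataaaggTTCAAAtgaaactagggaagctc
Ccnb2: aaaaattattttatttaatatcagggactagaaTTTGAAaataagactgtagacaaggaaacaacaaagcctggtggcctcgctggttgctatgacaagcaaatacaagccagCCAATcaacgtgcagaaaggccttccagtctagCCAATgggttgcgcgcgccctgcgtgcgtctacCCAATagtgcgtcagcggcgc
Ect2: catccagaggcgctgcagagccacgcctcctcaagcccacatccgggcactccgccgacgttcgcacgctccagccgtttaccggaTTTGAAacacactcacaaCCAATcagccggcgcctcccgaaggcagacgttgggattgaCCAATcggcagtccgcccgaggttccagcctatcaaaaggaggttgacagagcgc
Counted back from the start, Cdc20 held TTTGAA at -18, flanked by CCAAT at -53 and -8. Top2a held TTTGAA at -179 and its reverse complement TTCAAA at -23. Ccnb2 held TTTGAA at -167 and CCAAT at -87, -54 and -21, and Ect2 held TTTGAA at -114 with CCAAT at -96 and -55. After the start, beyond the bases shown, Ccnb2 also held TTTGAA at 5, and Ect2 held TTTGAA at 40 and CCAAT at 2. Only genes with TTTGAA in the 200 bases before the start were shown, at most 4, so its presence in all 4 was fixed by that choice. CCAAT was not part of the choice and also occurred in all 4, in the gene that fell, the one that rose and the 2 not called. Ncaph, which fell, had neither in its 300 bases. No promoter was matched for Ccna2, Cdc25c, Smc4, Aurkb, Incenp, Tpx2 and Kif20a.

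The genes differed widely in level. Levels between genes are compared as CPM per kilobase of exon. The length merges the exons of all annotated transcripts of a gene, such as 1531 bases for Ccnb2 and 6493 for Ndc80. The order of the genes thus also depends on the annotation. Mean levels ran from 5.80 to 115 CPM per kilobase in WT clones (median 29.9) and from 5.14 to 123 in KO clones (median 27.3). Top2a was the highest over all clones, with a level of 114 ± 2.56 CPM per kilobase in WT (SD, n = 6) and 123 ± 2.09 in KO (SD, n = 5). Ccnb2 followed at 115 ± 10.0 and 98.1 ± 4.16, so that in the WT clones the top pair did not differ beyond the spread. The condensin subunits Ncapd2 and Smc4 came next, at 96.6 ± 9.08 and 96.6 ± 8.74 CPM per kilobase in WT, and Cdc20 after them at 94.5 ± 7.91. These 3 neighbours also lay within each other's SD. At the bottom stood the phosphatase genes Cdc25b and Cdc25c and the kinetochore gene Ndc80.

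**Figure D1:**
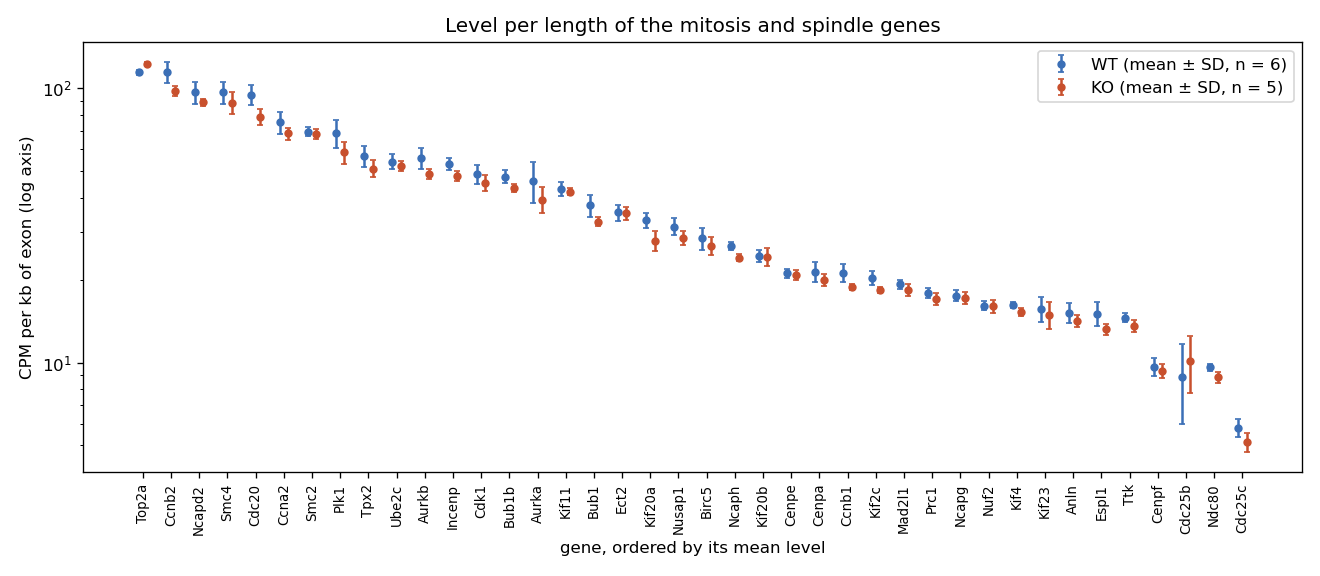
Level of each of the 40 genes, as mean CPM per kilobase of exon with SD, on a log axis, in 6 WT (blue) and 5 KO clones (red), ordered by the mean over all clones. Top2a and Ccnb2 lie at the left end and Cdc25c, at 5.80 in WT and 5.14 in KO, at the right end.

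In KO against WT, 3 of the 40 genes fell and 1 rose at an edgeR adjusted p under 0.05, where 5.05% of all tested genes passed in either direction. Cdc20, the activator of the anaphase-promoting complex, Kif20a, a kinesin of the central spindle, and Ncaph, a condensin subunit, were lower in KO clones, and Top2a, the topoisomerase that untangles sister DNA, was higher. The calls lower came to 7.5% of the genes, against 2.29% of all tested genes, and the call higher to 2.5%, against 2.76%. The sizes were small: the log2 fold changes of the 40 genes ran from -0.26 to 0.20 with a median of -0.11, a level 7.31% lower in the KO clones, while the median over all tested genes was -0.01. The fold change was below 0 for 38 of the 40 (95%), against 51.6% of all tested genes, and the other two, Cdc25b and Top2a, were above 0. An unadjusted p under 0.05 with a lower level in KO was reached by 18 genes (45%, against 10.3% of all tested genes), and with a higher level by Top2a alone (2.5%, against 10%). In 8 genes (20%, against 3.02%) every KO clone lay below every WT clone, namely Ccnb1, Ncaph, Ndc80, Aurkb, Incenp, Cdc20, Kif2c and Kif20a, and in Top2a every KO clone lay above every WT clone (2.5%, against 2.97%). Transcripts of these genes are known to rise and fall together in the cell cycle, so the genes are not separate observations, and RNA from whole cultures cannot tell fewer cells in mitosis from less RNA per mitotic cell.

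**Figure D2:**
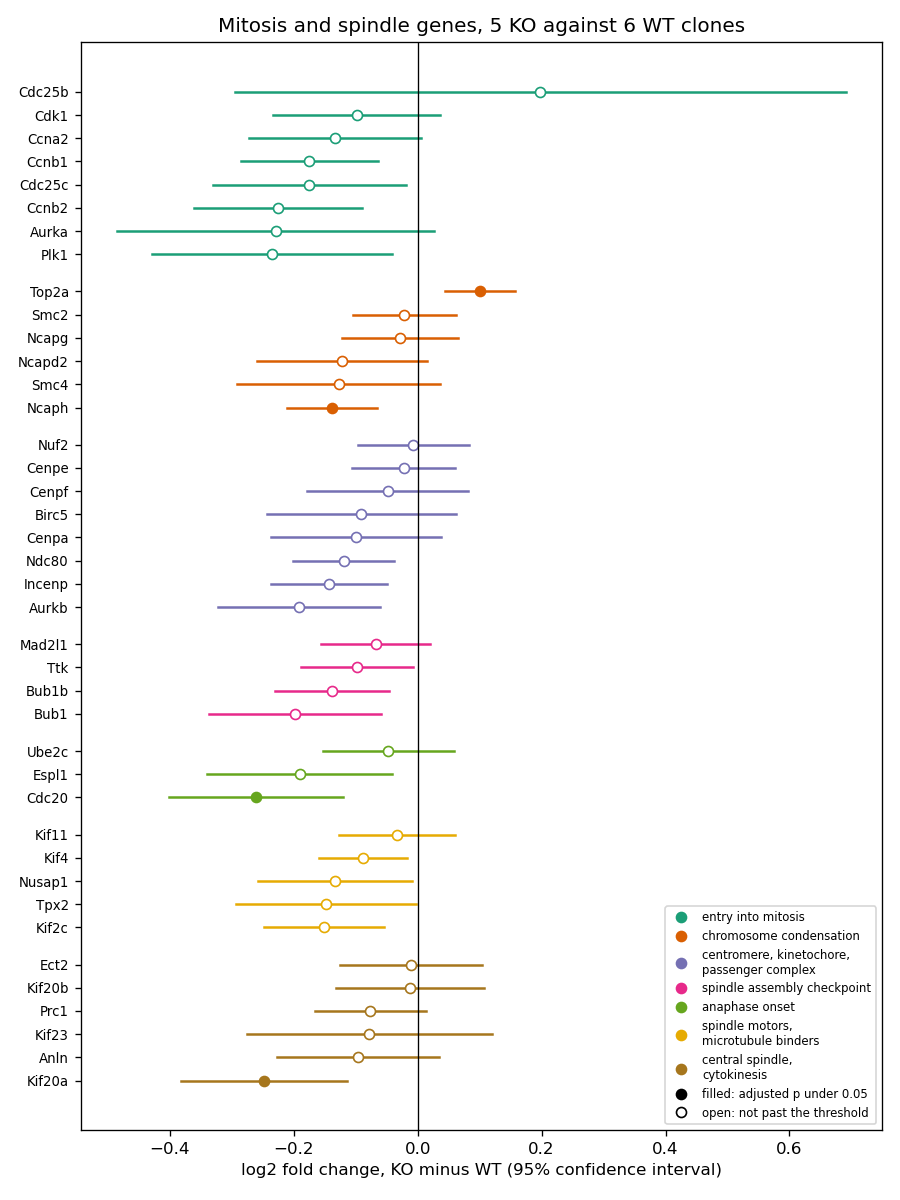
Log2 fold change, KO minus WT, with its 95% confidence interval for each of the 40 genes, coloured and grouped by role (5 KO against 6 WT clones). Filled points mark the 4 genes with an edgeR adjusted p under 0.05, and all points but Cdc25b and Top2a lie left of 0.

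None of the 4 calls held in every omission of 1 clone. Cdc20 kept its call without WT 2D, WT 2E or KO 4L and lost it without each of the other 8 clones (highest edgeR adjusted p = 0.111). Kif20a kept it without WT 2E or KO 4L (highest adjusted p = 0.108), Ncaph without WT 2D or KO 4K (0.0996), and Top2a lost it in all 11 omissions (0.0512 to 0.105). The direction of these 4 genes was the same in all 28 alternative settings. With WT 1A and 2D left out together, 3 genes were called lower, namely Ccnb2, Ncaph and Ncapd2, and 0 higher. In that setting 353 of 11966 genes were lower (2.95%) and 475 higher (3.97%). The change in Cdc20 was then -0.19 on the log2 scale (edgeR adjusted p = 0.0573), Kif20a -0.19 (0.0852) and Top2a 0.09 (0.0626), and 35 of the 40 fold changes were below 0.

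Among the 8 genes of entry into mitosis, 0 were called, 7 had a lower mean in KO and the median log2 fold change was -0.17. By DESeq2, Ccnb1 and Ccnb2 were called, and by the edgeR test 4 of the 8 had an unadjusted p under 0.05. Ccnb2, a B-type cyclin, ranged from 148 CPM in WT 2D to 194 in WT 1A (median 178 over the 6 WT clones), and stood at 147, 141, 154, 157 and 152 CPM in KO 3H, 3I, 4J, 4K and 4L. WT 2D lay among the KO clones and the other 5 WT clones above all of them, with a log2 fold change of -0.23 ± 0.06 (SE; adjusted p = 0.0613). Without WT 2D, Ccnb2 was called. Ccnb1, the other B-type cyclin, gave -0.17 ± 0.05 (adjusted p = 0.0731) without overlap between the genotypes, and their partner kinase Cdk1 gave -0.10 ± 0.06 (0.398). The mitotic kinases Plk1, at 151 CPM in WT and 128 in KO, and Aurka, at 117 and 99.5, had fold changes of -0.23 ± 0.09 (0.159) and -0.23 ± 0.12 (0.301), with WT 2D and WT 1A as the highest WT clones for both. Left out together, these 2 clones moved the fold change of Plk1 to -0.12 and that of Aurka to -0.07. Cdc25b, a phosphatase that activates CDK1, varied most between clones, from 21.6 CPM in WT 2D to 51.9 in WT 2E (median 33.0), with 33.4, 39.2, 29.3, 52.4 and 35.0 CPM in KO 3H, 3I, 4J, 4K and 4L. The genotypes overlapped, and the 95% interval of its fold change ran from -0.29 to 0.69 (adjusted p = 0.672). The cyclin Ccna2 (-0.13 ± 0.06) and the phosphatase Cdc25c (-0.17 ± 0.07) were not called.

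The 6 genes of chromosome condensation split, with Top2a called higher, Ncaph called lower and a median log2 fold change of -0.08. Top2a ranged from 994 CPM in WT 2D to 1056 in WT 2F (median 1036), and stood at 1099, 1077, 1114, 1127 and 1109 CPM in KO 3H, 3I, 4J, 4K and 4L. Every KO clone was higher than every WT clone, by a mean log2 fold change of 0.10 ± 0.03 (95% interval 0.04 to 0.16, edgeR adjusted p = 0.0479). Ncaph, the kleisin subunit that closes the condensin I ring, ranged from 109 CPM in WT 2D to 120.5 in WT 2E (median 115), and stood at 99.8, 103, 104, 109 and 105 CPM in the KO clones in the same order. KO 4K, at 108.6 CPM, lay just under WT 2D, at 108.9 CPM, so the genotypes met without overlapping (-0.14 ± 0.03, adjusted p = 0.0385). The ATPase Smc2, common to both condensins, gave -0.02 (95% interval -0.10 to 0.06), and the condensin I subunit Ncapg gave -0.03 (-0.12 to 0.07). The estimate for Ncaph lay outside both intervals, but it has its own error and the difference between these genes was not tested. Smc4 and Ncapd2 gave -0.13 ± 0.07 and -0.12 ± 0.06 and were not called.

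Of the 8 genes of the centromere, the kinetochore and the chromosomal passenger complex, all had a lower mean in KO, 0 were called and the median was -0.10. The passenger complex corrects wrong attachments through the kinase AURKB, which is held by INCENP and survivin (Birc5). Aurkb ranged from 151 CPM in WT 1C to 188 in WT 2D (median 162), against 149, 134, 146, 142 and 149 CPM in the KO clones in the order above. No KO clone reached a WT clone, and the edgeR test gave -0.19 ± 0.06 (adjusted p = 0.0954). Incenp was also separated by genotype (-0.14 ± 0.04, adjusted p = 0.0832), whereas Birc5 was not (-0.09 ± 0.07, 0.508). Of the microtubule-binding pair, Ndc80 was separated (-0.12 ± 0.04, 0.0939) and Nuf2 was not (-0.01, 95% interval -0.10 to 0.08). The centromeric histone Cenpa (-0.10 ± 0.06), the kinesin Cenpe (-0.02 ± 0.04) and Cenpf (-0.05 ± 0.06) had overlapping genotypes.

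The 4 checkpoint genes all had a lower mean in KO, with a median of -0.12 and 0 calls, and 3 of them had an unadjusted p under 0.05. Bub1b, which encodes the CDC20 inhibitor BUBR1, ranged from 189 CPM in WT 1B to 218 in WT 2D (median 206), against 195, 184, 182, 184 and 181 CPM in the KO clones in the order above. KO 3H lay among the WT clones and the other 4 KO clones below all of them (-0.14 ± 0.04, edgeR adjusted p = 0.0865). The kinase Bub1 gave -0.20 ± 0.06 (0.104), the kinase Ttk, also known as MPS1, -0.10 ± 0.04 (0.207), and Mad2l1 -0.07 ± 0.04 (0.374).

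The 3 genes of anaphase onset included the largest negative fold change of the list. Cdc20 ranged from 164 CPM in WT 2E to 202 in WT 2D (median 172), and stood at 149, 139.5, 148, 137 and 162 CPM in KO 3H, 3I, 4J, 4K and 4L. All KO clones lay below all WT clones, KO 4L by little, with means of 177 ± 14.8 CPM in WT (SD, n = 6) and 147 ± 9.92 in KO (SD, n = 5). The log2 fold change was -0.26 ± 0.06 (95% interval -0.40 to -0.12, edgeR adjusted p = 0.0413). Separase (Espl1) gave -0.19 ± 0.07 (adjusted p = 0.14) and Ube2c, the ubiquitin-conjugating enzyme that works with the same complex, -0.05 ± 0.05 (95% interval -0.15 to 0.06). Exons of Ube2c overlap those of Tnnc2 on the other strand over 22.8% of their length, and the counting ignored strand.

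All 5 spindle motors and microtubule binders had a lower mean in KO, with a median of -0.13, 0 calls and an unadjusted p under 0.05 for 4. Tpx2, which activates Aurora A on the spindle, ranged from 234 CPM in WT 1C to 295 in WT 2D (median 262), against 234, 220.1, 249.8, 228 and 261 CPM in the KO clones in the order above. The genotypes overlapped (-0.15 ± 0.07, edgeR adjusted p = 0.24). The microtubule depolymerase Kif2c was separated by genotype (-0.15 ± 0.04, 0.0767). The chromokinesin Kif4 gave -0.09 ± 0.03 (0.146), Nusap1 -0.13 ± 0.06 (0.213) and Kif11, the motor that pushes the spindle poles apart, -0.03 (95% interval -0.13 to 0.06).

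Of the 6 genes of the central spindle and cytokinesis, Kif20a fell, and the median over the 6 was -0.08. Kif20a, whose motor carries the passenger complex to the central spindle, ranged from 136 CPM in WT 1C to 156 in WT 1A (median 139.8), and stood at 119, 111, 129.9, 112 and 132 CPM in KO 3H, 3I, 4J, 4K and 4L. All KO clones lay below all WT clones, at means of 121 ± 9.76 (SD, n = 5) and 143 ± 9.12 CPM (SD, n = 6), a log2 difference of -0.25 ± 0.06 (edgeR adjusted p = 0.0412). Exons of Cdc23, on the other strand, overlap 29.3% of the exon length of Kif20a. Reads over both genes may have been set aside as ambiguous, and the share of Kif20a reads that came from Cdc23 cannot be told. The log2 CPM of Cdc23 minus its WT mean was 0.009, 0.016, 0.020, -0.003 and -0.005 in KO 3H, 3I, 4J, 4K and 4L. Among WT clones it ran from -0.145 in WT 2E to 0.140 in WT 2D, with WT 1A at 0.095. WT 1A and 2D were also the highest WT clones for Kif20a, at 0.127 and 0.092 on the same scale. Ect2, which activates RhoA at the furrow, ranged from 179.8 CPM in WT 2D to 214 in WT 2E (median 185), with 172, 193, 188, 200.6 and 189 CPM in the KO clones in the same order. The genotypes overlapped, and the fold change was -0.01 (95% interval -0.13 to 0.10). The centralspindlin motor Kif23 gave -0.08 ± 0.09, the microtubule bundler Prc1 -0.08 ± 0.04, anillin (Anln) -0.10 ± 0.06 and Kif20b -0.01 ± 0.05, and none was called.

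**Figure D3:**
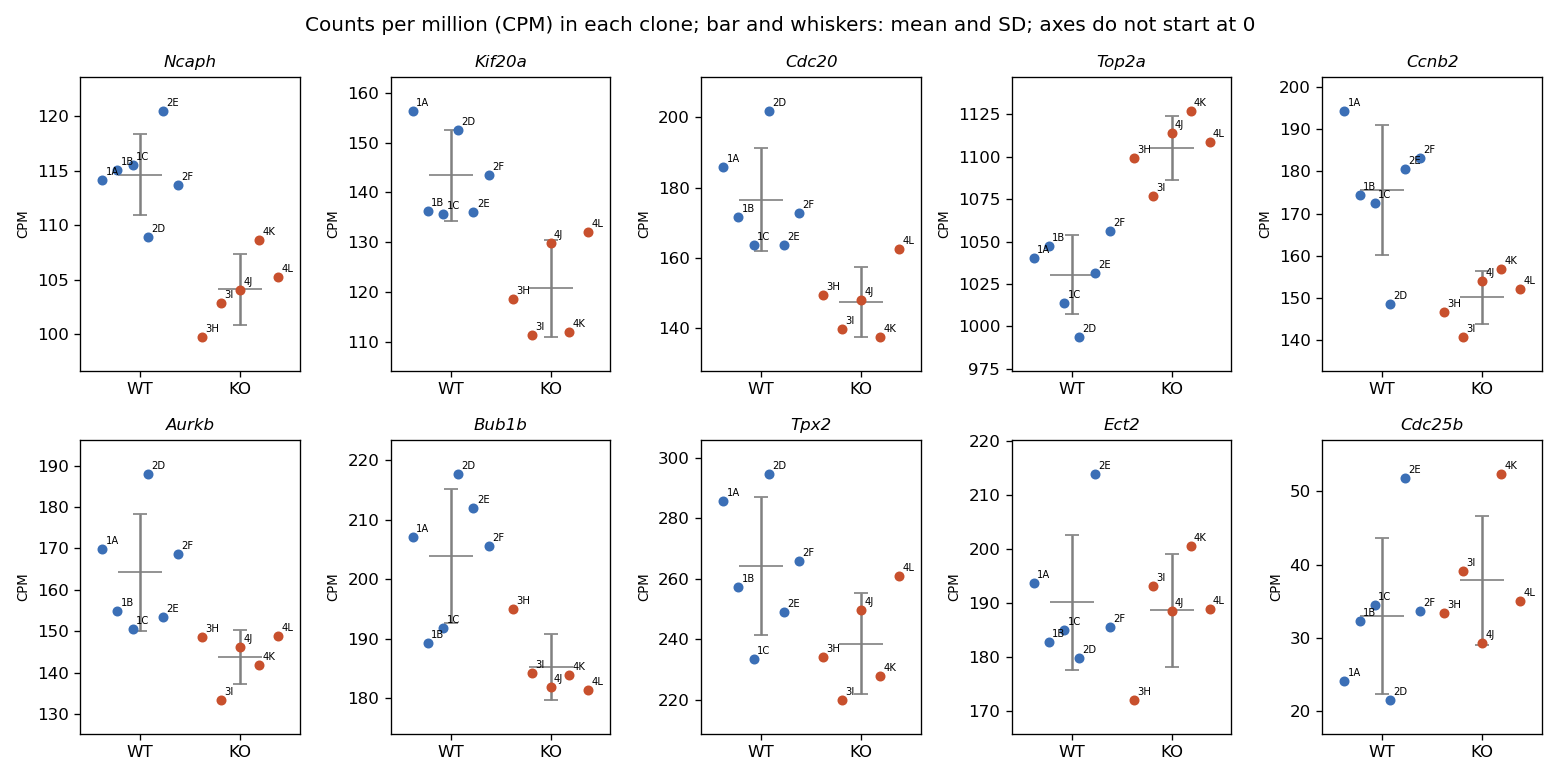
CPM of 10 genes in each of 6 WT (blue) and 5 KO clones (red), with mean and SD, on axes that do not start at 0. Cdc20, Kif20a, Ncaph and Aurkb show every KO clone below every WT clone, and Top2a the reverse, while Cdc25b and Ect2 overlap.

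Averaged over the 40 genes, the log2 CPM relative to the WT mean was 0.07, -0.03, -0.06, 0.02, 0.01 and -0.01 in WT 1A, 1B, 1C, 2D, 2E and 2F. It was -0.12, -0.17, -0.10, -0.09 and -0.04 in KO 3H, 3I, 4J, 4K and 4L. The 4 other KO clones lay below all WT clones, but KO 4L lay above WT 1C, so the genotypes overlapped on this mean. The number of genes below the WT mean was 36, 36, 35, 33 and 27 in the 5 KO clones, and ran from 6 in WT 1A to 31 in WT 1C. Summed over the 40 genes, the level was 7869 ± 244 CPM in WT (SD, n = 6) and 7438 ± 214 CPM in KO clones (SD, n = 5).

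**Figure D4:**
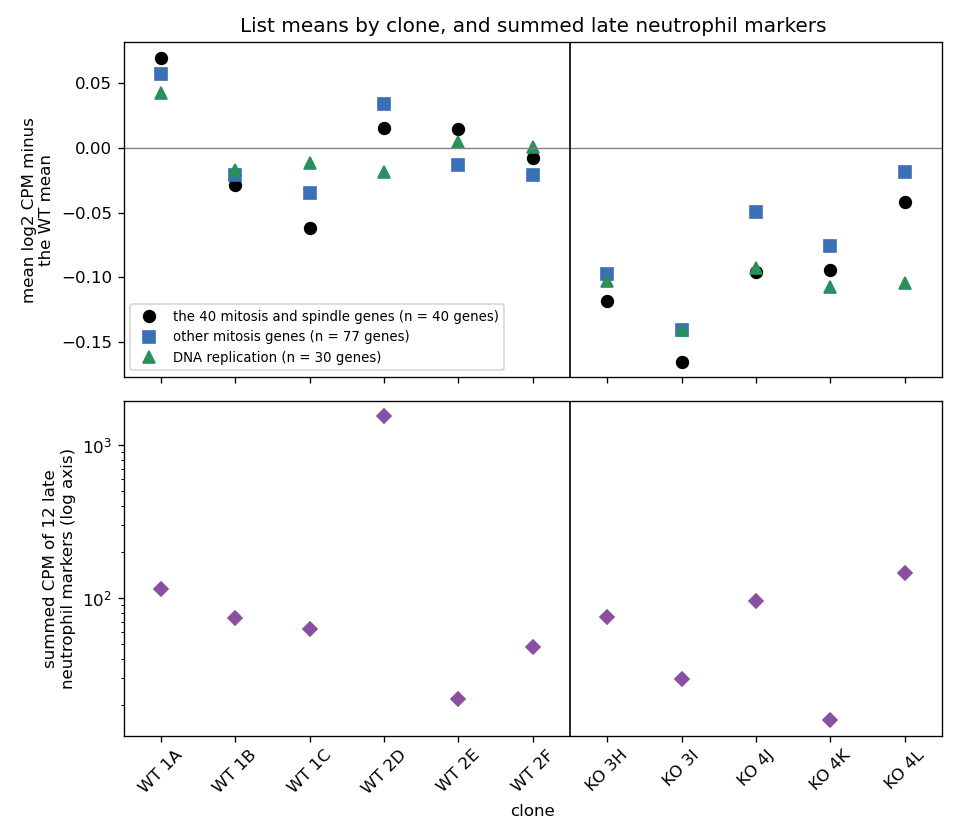
Upper panel, mean log2 CPM minus the WT mean in each clone for the 40 genes (circles), 77 other mitosis genes (squares) and 30 DNA replication genes (triangles). Lower panel, summed CPM of 12 late neutrophil markers on a log axis, where WT 2D stands at 1546 CPM.

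WT 2D lay near the WT mean over the 40 genes but at both ends of the WT range for single genes. It was the highest WT clone for 11 genes, among them Cdk1, Plk1, Aurka, Aurkb, Birc5, Cdc20 and Tpx2. It was the lowest for 12, among them Ccnb2, Cdc25b, Top2a, Ncapd2, Ncaph, Cenpa and Kif23. Relative to the mean of the other 5 WT clones, the log2 difference in WT 2D was 0.46 for Aurka, 0.32 for Plk1 and 0.24 for Cdc20, and -0.66 for Cdc25b, -0.35 for Kif23 and -0.28 for Ccnb2. WT 2E, by contrast, was the highest WT clone for 10 genes, Cdc25b, Cenpa and Kif23 among them, and the lowest for 5, including Aurka, Cdk1 and Cdc20. WT 1A was the highest WT clone for 16 genes and the lowest for 0, and WT 1C was the highest for 1 and the lowest for 17. WT 2D and 2E were also the highest and the lowest WT clones for the 12 late neutrophil markers, at 1546 and 22.1 CPM. Ltf, Camp, Retnlg and Ly6g had no count in WT 2E. WT 1A and 1C, at 116 and 63.2 CPM, lay between WT 2D and 2E. For 6 mast cell and basophil markers the order was the reverse, with the lowest WT sum in WT 2D, at 1113 CPM, and the highest in WT 2E, at 4074 CPM. The 5 KO clones had 2185, 4595, 3326, 4975 and 3088 CPM of these in the order 3H, 3I, 4J, 4K and 4L, and all 4 tested markers had a higher mean in KO, though 0 were called by edgeR and 0 had an unadjusted p under 0.05. Mcpt4 and Fcer1a, the least abundant of the 6, were at 0 in some clones. The sum over 8 erythroid markers was highest in WT 1A, at 75.8 CPM, against 5.46 to 15.2 CPM in the other clones. All 4 tested erythroid markers had a lower mean in KO, 1 of them at an unadjusted p under 0.05 by edgeR and 0 at its adjusted p. The part of these marker lists in the pattern was not tested, beyond a fit that took the late neutrophil score into the model. That fit called 5 of the 40 genes lower and 1 higher, where 425 of 11900 tested genes were lower (3.57%) and 537 higher. Among the KO clones, KO 3I was the lowest for 26 genes and KO 4L the highest for 23. Their summed late neutrophil markers were 29.6 and 146 CPM, against 16.0 to 96.7 CPM in the other 3 KO clones, and 6 of the 12 markers had no count in KO 3I.

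**Figure D5:**
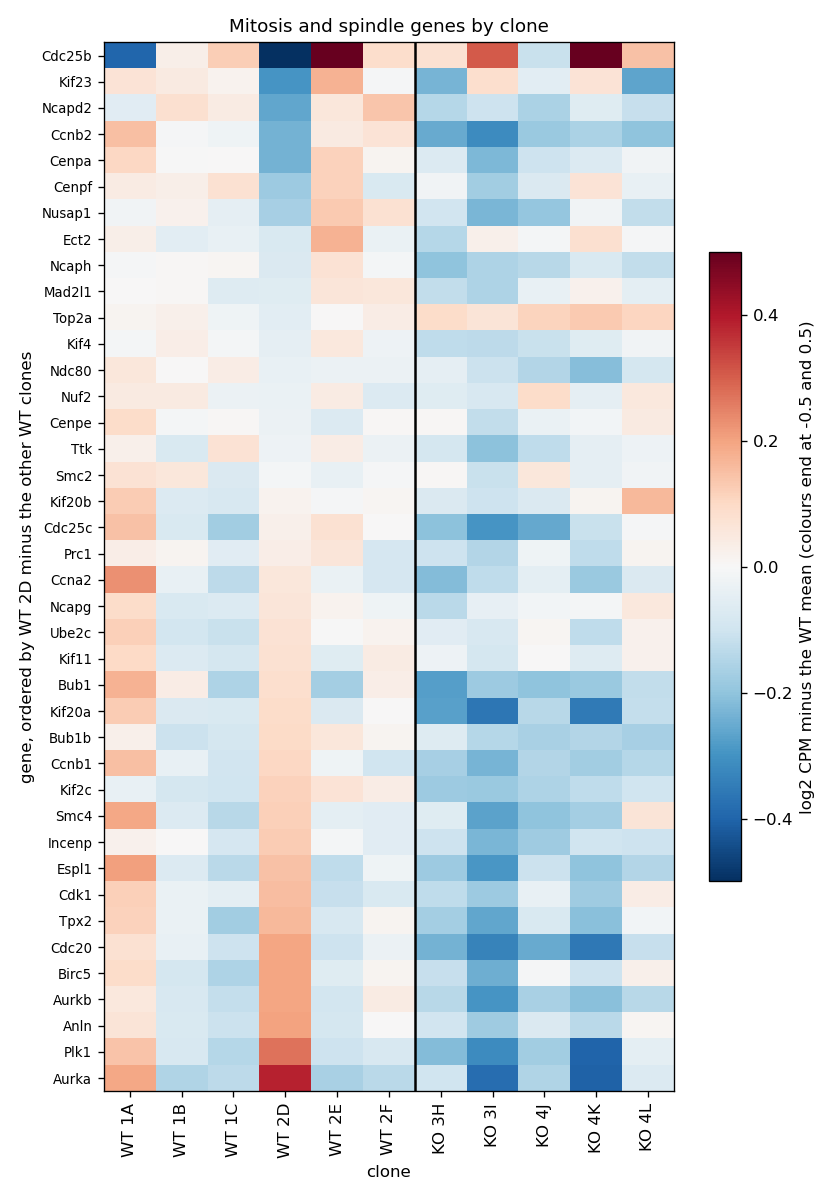
Log2 CPM minus the WT mean for each of the 40 genes (lines) in each clone (columns), with red above and blue below the WT mean, ordered by the difference between WT 2D and the other WT clones. The WT 2D column runs from blue at Cdc25b (top) to red at Aurka (bottom), and the 5 KO columns are mostly blue. Top2a lies above the WT mean in all 5 and Cdc25b in all but KO 4J, and 13 genes lie above it in KO 4L.

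Within the KO clones, the genes lay mostly higher in title number 4 than in 3, without any single gene being called. In a model of the 4 title numbers, 0 of the 40 genes (0% of all tested genes) were called between numbers 2 and 1 among WT clones, and 0 (0%) between 4 and 3 among KO clones, by edgeR's adjusted p, and DESeq2 and limma-voom also called 0. At an unadjusted p under 0.05, Kif2c (log2 difference 0.15) and Bub1b (0.11) were higher in number 2 than in 1, and 0 of the 40 differed between 4 and 3, against 3.13% and 1.35% of all tested genes. For 4 minus 3, 37 of the 40 differences were above 0 (92.5%, against 50.7% of all tested genes), all but Ndc80, Bub1b and Kif23, with a median of 0.07 against 0.00 over all tested genes. For 2 minus 1, 22 of the 40 were above 0 (55%, against 51.8%), with a median of 0.01 against 0.00. Beside the 38 of 40 below 0 and the median of -0.11 for KO against WT, the 2 sets of KO clones thus also differed mostly in 1 direction, by a smaller median. Set 3 holds KO 3H and 3I alone. On the mean over the 40 genes KO 3H, at -0.12, lay near KO 4J and 4K, at -0.10 and -0.09. KO 3I, at -0.17, and KO 4L, at -0.04, lay furthest apart. Genotype and title number are nested, so a difference between sets 1 and 2 on one side and 3 and 4 on the other cannot be told apart from genotype. The median SD of log2 CPM was 0.10 in WT and 0.07 in KO clones, against 0.11 and 0.08 over the 6632 tested genes in the same range of CPM.

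Other genes of cell division were taken from lists drawn up for this purpose, with earlier results of these data known. Of 77 further mitosis genes, 2 fell (2.6%, against 2.29% of all tested genes) and 1 rose (1.3%, against 2.76%), so the calls were near the background. Of their fold changes, 60 (77.9%, against 51.6%) were below 0, and the median was -0.08. By the edgeR test, 23 (29.9%, against 10.3%) were lower at an unadjusted p under 0.05, and 1 was higher. In 5 of the 77 (6.49%, against 3.02%) every KO clone lay below every WT clone, and in 0 every KO clone lay above. Kif22, a chromosome-arm motor, fell from 126 to 105 CPM (-0.26 ± 0.05, edgeR adjusted p = 0.0204), a call lost without KO 3H, 3I or 4J. Cdca3, which acts in the destruction of the CDK1 inhibitor WEE1, fell by 0.25 ± 0.06 (0.0334; called in 5 of 11 omissions of 1 clone), and the centromeric cohesin protector Sgo1 rose by 0.16 ± 0.04 (0.0355; called in 2 of 11). Of the 15 genes of the anaphase-promoting complex, Anapc2 (-0.24 ± 0.03, adjusted p = 0.00453) and Cdc16 (-0.15 ± 0.03, 0.0307) fell and Anapc16 rose (0.21 ± 0.05, 0.0482), with a median of -0.04. These calls were 13.3% lower and 6.67% higher, against 2.29% and 2.76% of all tested genes. Anapc2, the cullin of the complex, kept its call in all 11 omissions of 1 clone, Cdc16 in 3 and Anapc16 in 1. Of 9 cohesin genes only Pds5a, a regulator of cohesin release, was called (0.16 ± 0.03 higher, 0.0305; called in 3 of 11 omissions), which is 11.1% against 2.76%, and the median was 0.00.

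Of 17 regulators of mitotic transcription, 1 rose and 1 fell (5.88% each way, against 2.76% and 2.29% of all tested genes), and the median log2 fold change was -0.02. Cdkn1a, which encodes the CDK inhibitor p21, rose from 33.98 ± 4.38 CPM in WT (SD, n = 6) to 56.6 ± 5.86 in KO clones (SD, n = 5), with every KO clone above every WT clone (0.74 ± 0.10, edgeR adjusted p = 0.00291). The G1/S activator E2f1 fell from 60.5 ± 1.598 to 52.7 ± 2.31 CPM, again without overlap (-0.20 ± 0.04, adjusted p = 0.0145). Cdkn1a kept its call in all 11 omissions of 1 clone, and E2f1 in 10, losing it without KO 3I (0.053). Both were called with WT 1A and 2D left out together. The mitotic activators Foxm1 (-0.04 ± 0.06, adjusted p = 0.77) and Mybl2, which encodes B-MYB (-0.05 ± 0.12, 0.844), and Trp53 (0.01 ± 0.03, 0.851) were not called. Of 30 DNA replication genes, whose transcripts peak earlier in the cycle, 8 fell (26.7%, against 2.29% of all tested genes), and the median was -0.11. Among the 8 were Lig1 (-0.19 ± 0.03), Mcm4 (-0.18 ± 0.03) and Gins2 (-0.28 ± 0.06). Lig1 and Mcm4 kept their calls in all 11 omissions of 1 clone, and Gins2 in 7. By the edgeR test, 16 of the 30 (53.3%, against 10.3%) were lower at an unadjusted p under 0.05, and 0 were higher. In 7 (23.3%, against 3.02%) every KO clone lay below every WT clone, and in 0 every KO clone lay above. The difference between these lists and the 40 genes was not tested.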

How the data were processed

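RNA of 11 clones was sequenced from polyA-selected, strand-specific libraries, per the labels' protocols. The authors deposited whole-number read counts per Ensembl gene, and the submitters' processing notes name STAR, HTSeq, edgeR and the mm9 build, without versions. Strand was ignored in counting, as the names the authors gave the deposited count tables state. Lines for reads without a gene (5.41 to 6.94% without a feature and 2.7 to 2.93% ambiguous) were left out of library sizes.

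Gene IDs were paired with symbols through GENCODE M21 (32860 of 37583, 87.4%), whose exon lengths (GRCm38, another build than mm9) scaled levels between genes. edgeR 4.0.16 (R 4.3.3) fitted the 6 WT and 5 KO clones by robust quasi-likelihood after TMM scaling and filterByExpr, with Benjamini-Hochberg adjustment over 11900 genes and a threshold of 0.05. In it 601 genes were called (5.05%), 328 higher and 273 lower. A second model with 1 mean per title number gave the differences between title numbers. SE is the fold change divided by the root of F. Log2 CPM used a prior count of 2. The scripts were tested on simulated data. Alternatives used DESeq2 1.42.0, limma 3.58.1, other scalings and filters, a late neutrophil covariate, thinned counts, the title number as a block and clones left out. Counts of no 2 clones agreed within sampling noise. The clones of a genotype may share an embryo, so p-values measure the spread between these clones only.

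The 40 genes and all lists were chosen with earlier results of these data known. Values per clone are given for called genes, the highest per length of each role group, the 2 largest fold changes each way and the widest ranges. From other lists, up to 4 called genes of smallest adjusted p, and regulators, are named. The values of 1 gene of the DNA replication list are not reported here. Motif positions before the start count back from the base before it, and those after it count on from the first base of the gene. Perp was chosen after its values were seen. Figures used matplotlib 3.10.9.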

Additional observations from a re-analysis of the deposited data

Results flagged for a closer look

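In 82 groups of clones (each of the 40 genes and their mean, in WT and in KO clones), 2 had a clone set apart by its gap to the nearest other clone. That is 2.44%, where chance sets apart about 1 in 20 groups. The level of Cenpa, the centromeric histone, was 107 CPM in WT 2D, against 125 CPM in the nearest WT clone, a gap of 0.640 of the whole WT range. The level of Bub1b was 195 CPM in KO 3H, against 184 CPM in the nearest KO clone, a gap of 0.790 of the KO range.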

How the results depend on the processing

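The fold changes of 34 to 38 of the 40 genes were below 0 in all 28 alternative settings, and their median log2 fold change ran from -0.14 to -0.09. The counts of calls moved more than the fold changes. From 601 genes called, with 3 of the 40 lower, 1 higher and 3 of the other 77 mitosis genes called, DESeq2 gave 1259 genes, 11 lower and 7 of the 77. Without a filter on low counts there were 329 genes, 0 lower and 0 higher. The late neutrophil covariate gave 962 genes and 5 lower. Limma-voom gave 613 genes, 3 lower and 3 of the 77. With the title number as a random block in limma-voom there were 1983 genes, 14 lower and 16 of the 77. That block had only 4 title numbers, nested in genotype, so its larger counts are not firmer evidence. Set means gave 307 genes, 1 lower (Kif2c), 0 higher and 1 of the 77. Without robust estimation 0 were higher, as with WT 1A and 2D left out together. Without title number 1, 2, 3 or 4 there were 45, 296, 92 and 32 genes, 0, 1, 0 and 0 lower, 0 higher and 0 of the 77. Leaving out 1 clone gave 240 to 739 genes, 0 to 4 lower, 0 higher and 0 to 3 of the 77. The cause was not tested, except that leaving out clones lowers their number. No paired analysis was possible because the 2 genotypes share no title number. DESeq2 called 15 and 6 genes between title numbers 2 and 1 and between 4 and 3, none of the 40. The fold changes of Nuf2, Kif20b and Ect2 changed sign in 5 or more settings.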
